A study of Mus musculus with 20 samples.

Results

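Pericentral Wnt target genes were followed in mouse liver, in total RNA and in RNA from polysome fractions of the same animals. These were 10 genes of the 53028 in the deposited table, listed by name as Wnt-dependent genes of pericentral hepatocytes, with no threshold on their values: Axin2, Rnf43, Znrf3, Lgr5, Tbx3, Glul, Slc1a2, Oat, Rhbg and Lhpp. All 10 passed the filter on low values, more than 0.5 CPM (read counts scaled to library size) in at least 4 libraries, in both kinds of RNA.

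The animals were chow-fed male C57BL/6J mice, 8 weeks old at injection by the series' description (10 weeks by the study's methods for liver ribosomes), given a locked nucleic acid (LNA) oligomer by intraperitoneal injection at 3 mg/kg. There were 3 injections, 1 every other day, and the livers were taken 2 days after the last, following a dose of cycloheximide, which holds ribosomes on messages. A control LNA against GFP was given to 5 mice, numbered 1, 2, 3, 8 and 9. An LNA against SNORA73, a box H/ACA small nucleolar RNA made from introns of Snhg3, was given to another 5, numbered 4, 6, 10, 11 and 12. The labels call that group Snora37kd, and this name is used here. Each mouse gave 1 library of total RNA (input) and 1 of polysome RNA, and 20 libraries in all were made from polyadenylated RNA. Values are given below in the order of those mouse numbers.

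Liver lobules are zoned along the path of the blood, and hepatocytes next to the central vein receive Wnt ligands from the endothelium of that vein. The signal stabilises beta-catenin, which acts with TCF/LEF factors to switch on a small set of genes. Some of these feed back on the Wnt pathway itself, and others let the last cells on the path take up ammonia and glutamate and build glutamine. In bulk liver, fewer cells of a type and less RNA per cell cannot be told apart.

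Estimated counts summed to 20005389 to 42023390 per library in total RNA and to 14852951 to 33824659 in polysome RNA. The study reported lower SNORA73 by RT-qPCR in livers of chow-fed mice given LNAs against it. It did not state whether those mice were the ones sequenced. The target could not be read in these libraries, where Snora73a had at most 2 counts and Snora73b at most 4 counts in any library. Its host transcript Snhg3 lay at 3.90 to 5.18 CPM with the GFP LNA and 3.28 to 7.44 CPM with the Snora37kd LNA in total RNA. Summed markers of hepatocytes, Kupffer cells, stellate cells, cholangiocytes and lymphocytes overlapped between the LNA groups in both RNAs. The summed CPM of 6 markers of sinusoidal endothelium was 90.2 to 109 CPM with GFP and 107 to 120 CPM with Snora37kd in total RNA, where the groups overlapped, and 82.2 to 99.2 against 104 to 112 CPM in polysome RNA, where they did not. Of all genes taken singly, 3.23% had groups that did not overlap in polysome RNA. The part of the endothelial marker difference in the results below was not tested.

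The first question was whether the SNORA73 LNA changed the abundance of these genes in total RNA. None of the 10 passed the test in edgeR (false discovery rate, FDR, under 0.05), where 0.0303% of the 13195 genes tested were called. At an unadjusted p under 0.05 there were 0 members, against 8.65% of all genes. By FDR, limma-voom and DESeq2 also called 0 members, beside 5 and 75 of the 13195 genes. The lowest FDR among the members was 0.756, that of Lhpp. The median log2 fold change of the 10 was 0.08, beside 0.01 for all genes tested. The 5 Snora37kd mice overlapped the 5 GFP mice for every member, while 1.84% of all genes had groups that did not overlap.

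**Figure D1:**
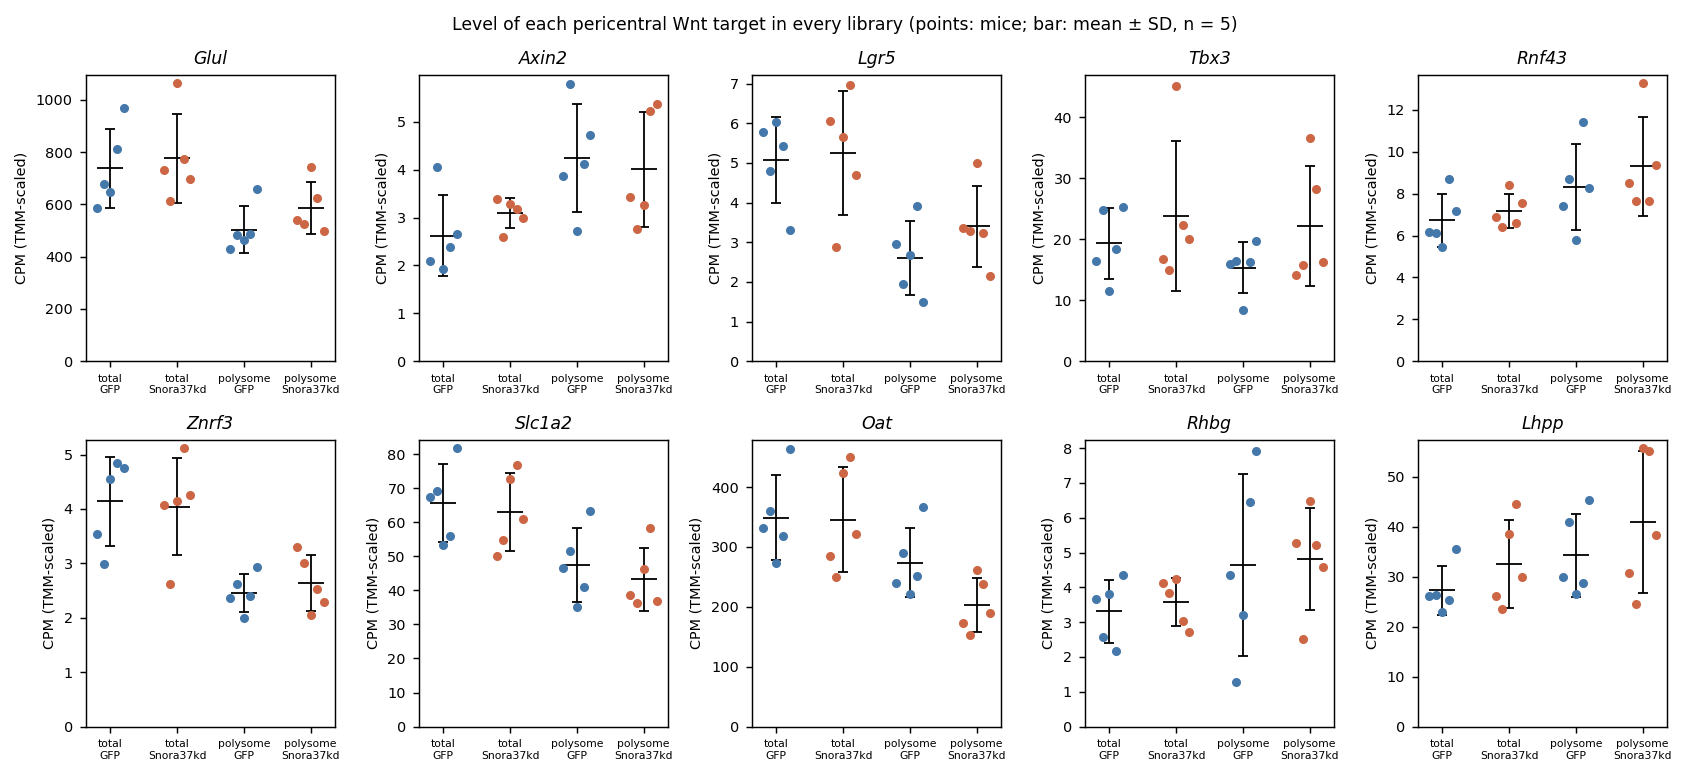
CPM (scaled by the trimmed mean of M values) of each of the 10 genes in every library, with points for mice and bars for the mean ± SD of 5 mice. In each panel the GFP (blue) and Snora37kd (orange) points overlap within total RNA and within polysome RNA, as for Glul, at 585 to 967 CPM against 615 to 1065 CPM in total RNA.

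The feedback regulators act at different points of the pathway. Axin2 is a scaffold of the complex that destroys beta-catenin. In total RNA it stood at 2.10, 4.06, 1.92, 2.38 and 2.65 CPM in the GFP mice and at 3.38, 2.59, 3.29, 3.17 and 2.99 CPM in the Snora37kd mice. GFP mouse 2 was the highest of the 10, and 3 of the other 4 GFP mice lay below the Snora37kd range. The log2 fold change was 0.23 (SE 0.20, 95% interval -0.22 to 0.67, n = 5 per group, edgeR FDR 0.814), and leaving out single mice gave 0.12 (without GFP mouse 3) to 0.44 (without GFP mouse 2).

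Rnf43 and Znrf3 are membrane ubiquitin ligases that remove Frizzled receptors from the cell surface. Rnf43 ranged over 5.47 to 8.71 CPM with GFP and 6.40 to 8.40 CPM with Snora37kd in total RNA, a log2 fold change of 0.09 (SE 0.14). Leaving out single mice gave Rnf43 values of 0.02 (without GFP mouse 3) to 0.19 (without GFP mouse 8). For Znrf3 the GFP mice had 3.54, 3.00, 4.56, 4.85 and 4.75 CPM and the Snora37kd mice 4.08, 2.62, 4.15, 5.12 and 4.26 CPM. Both the lowest and the highest mouse for Znrf3 carried the Snora37kd LNA, and the log2 fold change was -0.04 (SE 0.19).

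Lgr5 is a receptor for R-spondins, which protect Frizzled receptors from these ligases. Total RNA held 5.79, 4.80, 6.02, 5.42 and 3.30 CPM of Lgr5 with GFP and 6.07, 2.87, 5.67, 6.96 and 4.69 CPM with Snora37kd. Mice 9 and 6, 1 of each group, were the lowest for Lgr5, and the rest overlapped (log2 fold change 0.04, SE 0.22, 95% interval -0.45 to 0.53). Counts behind these 4 genes were low, from 58 to 263 per library of total RNA.

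Tbx3 encodes a T-box transcription factor of the pericentral zone. In total RNA it was at 16.5, 24.8, 11.6, 18.4 and 25.4 CPM with GFP and at 16.8, 14.9, 45.2, 22.4 and 20.1 CPM with Snora37kd. Mouse 10 alone stood above the GFP range. The log2 fold change of 0.30 (SE 0.30, 95% interval -0.35 to 0.95) rested on that mouse, and without it the value was -0.07.

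Glutamine synthetase, encoded by Glul, joins ammonia to glutamate and is made in the hepatocytes nearest the central vein. Total RNA held 585, 680.0, 647, 810.4 and 967 CPM of Glul in the GFP mice and 731, 615, 1065, 775 and 696 CPM in the Snora37kd mice. Means were 738 ± 152 and 776 ± 172 CPM (SD, n = 5 each), and the groups overlapped over most of their range. The log2 fold change was 0.07 (SE 0.17), and its 95% interval ran from -0.30 to 0.45.

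Slc1a2, a glutamate transporter of the plasma membrane, stood at 67.5, 69.3, 53.2, 56.1 and 81.8 CPM with GFP and at 50.1, 54.9, 72.8, 76.9 and 60.9 CPM with Snora37kd in total RNA (log2 fold change -0.06, SE 0.15). Oat, the mitochondrial ornithine aminotransferase that makes a precursor of glutamate from ornithine, was at 332, 360.1, 272, 318 and 463 CPM with GFP and at 285, 249.8, 423, 449.7 and 322 CPM with Snora37kd. The total RNA means of Oat, 349 ± 71.4 and 346 ± 86.9 CPM, were closer to each other than the mice within either group. The log2 fold change of Oat was -0.02 (SE 0.18, 95% interval -0.42 to 0.38).

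Rhbg, an ammonia transporter, ranged over 2.18 to 4.35 CPM with GFP and 2.71 to 4.25 CPM with Snora37kd in total RNA (log2 fold change 0.11, SE 0.21). Lhpp, a phosphatase that acts on phosphohistidine, was at 26.2, 26.4, 22.9, 25.3 and 35.6 CPM with GFP and at 26.1, 23.5, 38.6, 44.6 and 29.9 CPM with Snora37kd. Mice 10 and 11 were the highest for Lhpp and overlapped no GFP mouse, while the other 3 Snora37kd mice lay inside the GFP range (log2 fold change 0.25, SE 0.18, 95% interval -0.14 to 0.64, and 0.11 without mouse 11).

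The same comparison was made in polysome RNA, where the level of a gene among polysome-associated messages also carries any change in its total level. Again 0 of the 10 passed in edgeR, where 0.0153% of 13060 genes were called. By FDR, limma-voom and DESeq2 called 0 members as well, beside 2 and 281 of the 13060 genes. At an unadjusted p under 0.05 there was 1 member, Oat, against 13.4% of all genes. The median log2 fold change of the members was 0.13, beside -0.01 for all genes. No member had groups that did not overlap, against 3.23% of all genes.

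Polysome RNA of the GFP mice held 239, 289, 221, 252 and 366 CPM of Oat, and that of the Snora37kd mice held 173, 153, 261, 237 and 189.9 CPM. Snora37kd mice 4, 6 and 12 were below every GFP mouse, and mice 10 and 11 fell inside the GFP range. Means were 274 ± 57.3 and 203 ± 45.1 CPM, a log2 fold change of -0.43 (SE 0.18, 95% interval -0.82 to -0.05). This did not pass the correction over all genes (edgeR FDR 0.320, and 0.145 to 0.513 over the alternatives).

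Tbx3 had the next lowest p in polysome RNA, with 15.9, 16.5, 8.37, 16.2 and 19.7 CPM in the GFP mice and 14.1, 15.7, 36.7, 28.3 and 16.3 CPM in the Snora37kd mice. Mice 10 and 11 exceeded every GFP mouse, and the other 3 were within the GFP range. The log2 fold change was 0.54 (SE 0.28, 95% interval -0.06 to 1.14, edgeR FDR 0.426), and 0.29 without mouse 10.

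Glul in polysome RNA was at 428, 483, 462, 486 and 658 CPM with GFP and at 541, 524, 744, 624 and 499 CPM with Snora37kd. All 5 Snora37kd mice lay above 4 of the 5 GFP mice, and GFP mouse 9 lay above 4 of the 5 Snora37kd mice. The log2 fold change was 0.22 (SE 0.16, 95% interval -0.12 to 0.55, edgeR FDR 0.589), and it was 0.12 without mouse 10 and 0.34 without mouse 9.

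The other 7 members did not pass in polysome RNA, and their intervals included 0. Log2 fold changes were 0.39 for Lgr5 (SE 0.28), 0.25 for Lhpp (SE 0.23), 0.16 for Rnf43 (SE 0.21) and 0.10 for Znrf3 (SE 0.20). They were 0.06 for Rhbg (SE 0.38), -0.08 for Axin2 (SE 0.25) and -0.14 for Slc1a2 (SE 0.18). Single mice moved several of these values, as Lgr5 was 0.22, Lhpp 0.12 and Rnf43 0.0061 without mouse 10, and Znrf3 was 0.0015 without mouse 4. Slc1a2 was -0.0059 without mouse 9 and -0.25 without mouse 11. The interval of Rhbg was the widest of the 10, from -0.77 to 0.89, with 29 to 191 counts per library.

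**Figure D2:**
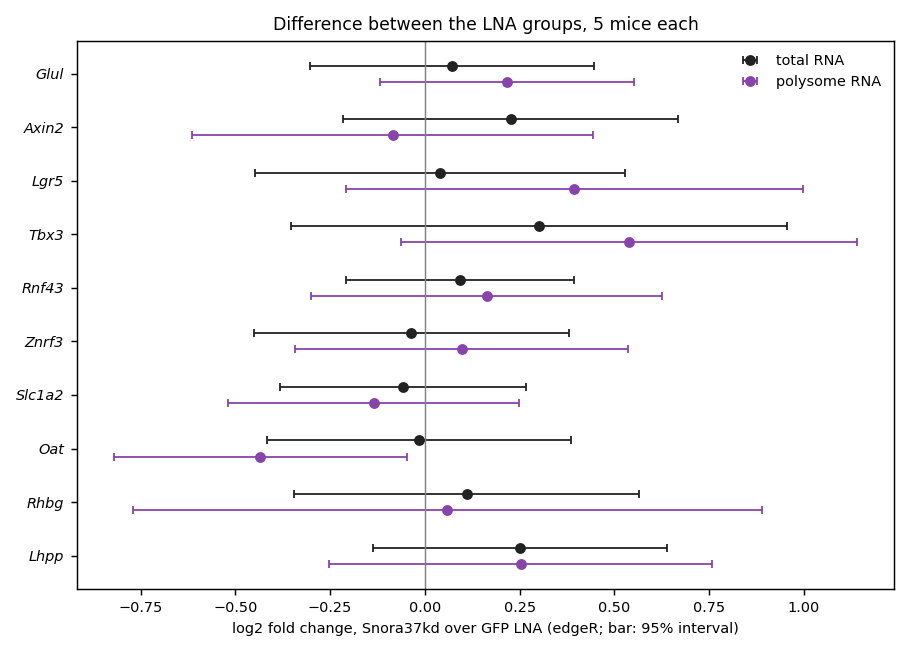
Log2 fold change of Snora37kd over GFP LNA for each gene in total RNA (black) and polysome RNA (purple), with 95% intervals from edgeR, 5 mice per group. Of the 20 intervals, only that of Oat in polysome RNA, -0.82 to -0.05, leaves out 0.

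Polysome RNA was next compared with total RNA within each LNA group, which asks how much of each message was found with polysomes relative to other messages. Total RNA was recovered with Trizol LS and a column, and polysome RNA with Trizol-LS, precipitation, heparinase treatment and a further cleanup, so the fraction and its preparation cannot be told apart. In the GFP mice 5 of the 10 members were called by edgeR, 1 higher and 4 lower in polysome RNA, where 42.8% of 13795 genes were called, 21.8% higher and 21% lower. In the Snora37kd mice 3 of 10 were called and were lower, where 38% of genes were called, 19.7% higher and 18.2% lower. With the mouse as a block, since both libraries came from 1 animal, 9 members were called in the GFP mice, 3 higher and 6 lower, where 56.1% of all genes were called, 28.9% higher and 27.2% lower. In the Snora37kd mice the block gave 7, 2 higher and 5 lower, where 51.1% of all genes were called, 26% higher and 25.1% lower. Median log2 differences of the members were -0.34 and -0.25 in the fits without the block, beside 0.03 and 0.02 for all genes.

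The feedback genes did not share a direction. Axin2 was higher in polysome RNA of the GFP mice, at 3.87, 5.79, 2.72, 4.12 and 4.72 CPM, than in their total RNA. The ratio of polysome to total CPM of the same mouse was 1.85, 1.42, 1.41, 1.73 and 1.78 in those 5 mice, and the log2 difference was 0.69 (SE 0.23, edgeR FDR 0.0219). With Snora37kd the ratio was 1.01, 1.07, 0.990, 1.65 and 1.80, so that mice 11 and 12 were like the GFP mice and the other 3 were near 1. The Axin2 difference within that group, 0.37 (SE 0.24), did not pass (edgeR FDR 0.228), and without GFP mouse 1, 8 or 9 the call in the GFP mice was lost (FDR 0.0643 to 0.0688).

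Znrf3 was lower in polysome RNA in both groups, with log2 differences of -0.75 (SE 0.19, edgeR FDR 0.0036) in the GFP mice and -0.61 (SE 0.20, FDR 0.017) in the Snora37kd mice. Polysome RNA of the GFP mice held 2.37, 2.63, 1.99, 2.40 and 2.94 CPM, each below the lowest total RNA value of that group, 3.00 CPM. Mouse 6 was the exception, with a polysome to total ratio of 1.14. The call in the Snora37kd mice was lost without mouse 10, 11 or 12 (FDR 0.065 to 0.0869).

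Rnf43, the close relative of Znrf3, had ratios above 1 in 10 of 10 mice, from 1.06 to 1.41 with GFP and from 1.16 to 1.58 with Snora37kd. Its log2 differences were 0.30 (edgeR FDR 0.185) and 0.38 (FDR 0.106), and with the mouse as a block they were 0.29 (SE 0.10, FDR 0.0221) and 0.36 (SE 0.10, FDR 0.0087). The 2 ligases lay on opposite sides of 1 in 9 of 10 mice. Gm25968 and 1110028F11Rik overlap the Rnf43 locus, and kallisto shares reads among transcripts they could come from. A930009A15Rik likewise overlaps the Lgr5 locus, LOC115489466 and Gm13872 that of Slc1a2, and Mir8114 that of Glul.

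Lgr5 was lower in polysome RNA of the GFP mice, at 2.95, 1.96, 2.69, 3.91 and 1.49 CPM (log2 difference -0.97, SE 0.27, edgeR FDR 0.00595). That was the member with the largest fall, and its ratio was below 1 in 9 of 10 mice. With Snora37kd the polysome values were 3.36, 3.29, 5.0, 3.23 and 2.15 CPM and the difference was -0.61 (SE 0.27), which passed with the mouse as a block (FDR 0.0205) and not without it (FDR 0.0779). Tbx3 had ratios of 0.664 to 0.967 in the GFP mice and 0.811 to 1.26 in the Snora37kd mice, and was called only in the GFP mice with the block (log2 difference -0.33, SE 0.10, FDR 0.0143).

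Glul, Slc1a2 and Oat were below 1 in 10 of 10 mice each, and Rhbg was above 1 in 7 and Lhpp in 10. Glul had ratios of 0.732, 0.71, 0.715, 0.599 and 0.681 with GFP and 0.740, 0.852, 0.699, 0.805 and 0.717 with Snora37kd. All 10 mice were thus below 1, with log2 differences of -0.55 (SE 0.17, edgeR FDR 0.0109) and -0.40 (SE 0.17, FDR 0.0596, and 0.000237 with the mouse as a block). The call in the GFP mice was lost without mouse 8 (FDR 0.052).

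Slc1a2 was below 1 in the same 10 mice, with ratios of 0.657 to 0.775 and of 0.605 to 0.772. Its polysome values were 46.4, 51.7, 35.0, 41.0 and 63.4 CPM with GFP and 38.7, 36.3, 46.2, 58.3 and 36.8 CPM with Snora37kd. The log2 differences from total RNA were -0.47 (SE 0.17, edgeR FDR 0.0334) and -0.54 (SE 0.17, FDR 0.0163). In the GFP mice the call was lost without mouse 1, 2, 3 or 8, and in the Snora37kd mice without mouse 12 (FDR 0.0539 to 0.0891).

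Rhbg had no common direction, with ratios from 0.501 to 2.97 in the GFP mice, and it was called in neither group with or without the block. Lhpp stood above 1 in 10 of 10 mice, from 1.14 to 1.55 with GFP and from 1.04 to 1.44 with Snora37kd. The log2 difference of Lhpp was 0.33 in each group without the block (FDR 0.244 and 0.257) and 0.32 and 0.30 with it (FDR 0.00638 and 0.00989).

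**Figure D3:**
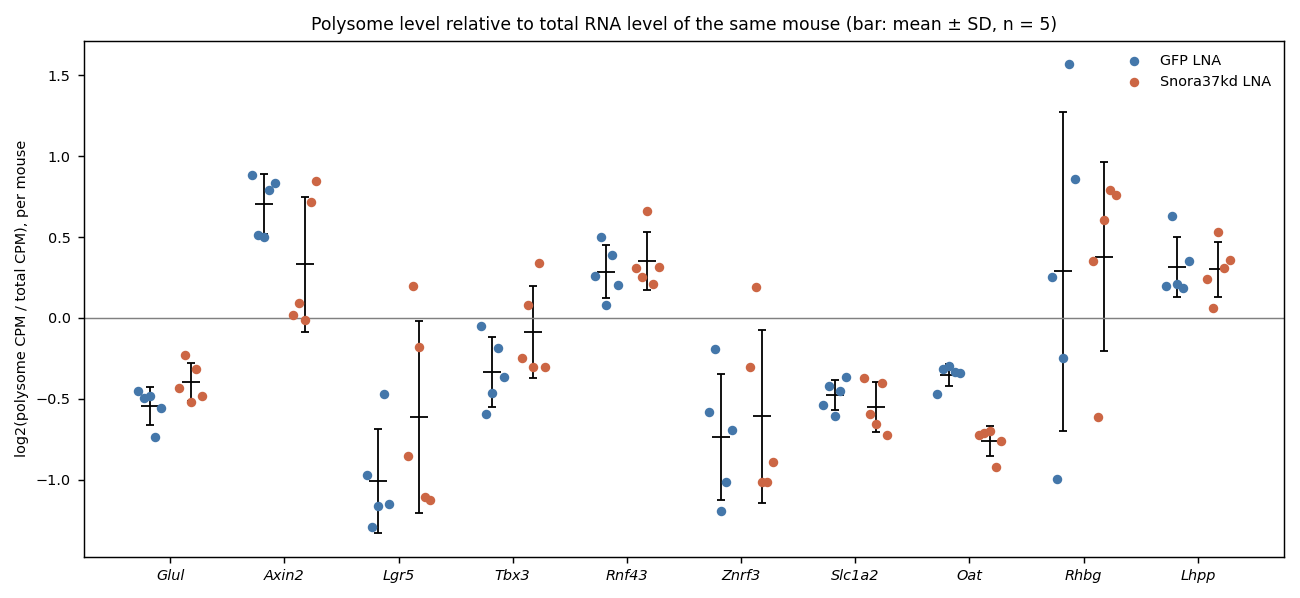
Log2 ratio of polysome to total CPM for each mouse and gene, with GFP mice in blue and Snora37kd mice in orange and bars for the mean ± SD of 5 mice. Glul, Slc1a2 and Oat lie below 0 and Rnf43 and Lhpp above 0 in 10 of 10 mice, and Oat is the gene whose 2 LNA groups do not overlap.

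Oat was the member whose ratio did not overlap between the LNA groups. The ratio was 0.722, 0.803, 0.813, 0.794 and 0.790 in the GFP mice and 0.607, 0.611, 0.617, 0.528 and 0.590 in the Snora37kd mice, so that each Snora37kd mouse was below each GFP mouse. Over all 13795 genes 1.75% had groups that did not overlap in this ratio, 0.913% with Snora37kd lower. The mean log2 ratio was -0.35 ± 0.07 and -0.76 ± 0.09 (SD, n = 5 each), a difference of -0.41. Oat was singled out of the 10 members after this separation was seen, so no test of it over the mice is given.

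The test of the same difference across all genes did not pass. The interaction of RNA and LNA for Oat was -0.42 (SE 0.27, edgeR FDR 0.999922), where 0.00725% of genes were called and 0 of the 10 members. At an unadjusted p under 0.05 there were 0 members, against 2.91% of all genes. With the mouse as a block the estimate was -0.41 (SE 0.09, edgeR FDR 0.242), where 0.00725% of genes were called and 8.03% had an unadjusted p under 0.05. Oat had rank 21 of 13795 genes by that p, and it was the single member with a blocked p under 0.05.

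Within the groups, Oat was lower in polysome than in total RNA by 0.77 on the log2 scale with Snora37kd (SE 0.19, edgeR FDR 0.00293). With GFP the difference was -0.35 (SE 0.19, FDR 0.143, and 0.000275 with the mouse as a block). The difference of -0.41 became -0.42 with library totals in place of scaled sizes, where 1.57% of all genes had groups that did not overlap, and -0.42 without mice 9 and 10. Leaving out each mouse in turn gave -0.44 to -0.37. Summed hepatocyte markers overlapped between the LNA groups in polysome RNA, at 44014 to 68115 and 42709 to 65658 CPM. Those of sinusoidal endothelium did not, at 82.2 to 99.2 and 104 to 112 CPM. The part of the mix of cells in the Oat ratio was not tested.

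The other members gave smaller or less certain interactions. Estimates with the block were 0.40 for Lgr5 (SE 0.28), -0.36 for Axin2 (SE 0.23), 0.25 for Tbx3 (SE 0.15) and 0.15 for Glul (SE 0.10), with edgeR FDR from 0.692 to 0.73. Those of Rnf43, Znrf3, Slc1a2, Rhbg and Lhpp lay between -0.07 and 0.14.

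Another question was whether a mouse with more of a message in total RNA also had more in polysome RNA. Across the 10 mice the 2 levels were correlated for 6 of the 10 genes at an adjusted p under 0.05 (Benjamini-Hochberg over 10 relations, permutation test). The 6 were Lhpp (r = 0.94, rho = 0.95, adjusted p = 0.0009 and 0.0014), Rnf43 (r = 0.92, rho = 0.79, adjusted p = 0.0016 and 0.0204), Slc1a2, Tbx3, Glul and Oat. For Slc1a2 r was 0.91 and rho 0.87 (permutation test, adjusted p = 0.00183 and 0.00637), and it remained 0.91 without the 2 mice farthest from the median. For the 13185 other genes that passed the filter in total RNA, the median r of their total and polysome levels was 0.48. The quartiles were 0.17 and 0.71, and 48% of these genes had r above 0.5. They were not matched to the members by level.

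Glul (r = 0.87, rho = 0.78, adjusted permutation p = 0.0031 and 0.0204) and Tbx3 (r = 0.88, rho = 0.93, adjusted permutation p = 0.00338 and 0.0017) rested in part on their farthest mice. Without the 2 farthest mice r was 0.58 for Glul and 0.54 for Tbx3. For Oat r was 0.78 and rho 0.77 over all mice (adjusted permutation p = 0.0119 and 0.0204), and r rose to 0.97 once each LNA group was centred on its own mean. The 4 others were Axin2 (r = 0.52, rho = 0.48), Lgr5 (0.43 and 0.33), Rhbg (0.25 and 0.43) and Znrf3 (-0.31 and -0.28), with adjusted permutation p from 0.176 to 0.49. These were also the genes with the fewest counts, with 29 to 57 in their lowest polysome libraries.

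The members were also compared with each other from mouse to mouse. In total RNA, r with Glul was above 0 for each of the other 9, with a median of 0.53, and Glul was correlated with 1 of them at an adjusted p under 0.05 by Pearson's r, with Tbx3 (r = 0.80, rho = 0.77, adjusted permutation p = 0.0382 and 0.0597). That value fell to 0.46 without mice 9 and 10, the pair with the most Glul. Glul with Oat (r = 0.71), Rnf43 (0.71) and Lhpp (0.69) each had an adjusted permutation p of 0.0659, and Glul with Lgr5 had r = 0.01. Of the 13185 other genes, 1.62% were correlated with Glul at least as strongly as Tbx3 was.

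Among the other 36 pairs, examined after the first values were seen, r was above 0 in 29 and below 0 in 7, with a median of 0.23, and 2 pairs passed by both coefficients (adjusted over 36). By rho alone, Tbx3 with Oat, Tbx3 with Lhpp and Slc1a2 with Lhpp passed (rho = 0.85, adjusted permutation p = 0.0208 each), and so did Tbx3 with Slc1a2 (rho = 0.81, adjusted permutation p = 0.043). Slc1a2 and Oat had r = 0.93 and rho = 0.95 (permutation test, adjusted p = 0.00252 and 0.00216), with r = 0.93 without mice 4 and 9 and 0.94 within LNA groups. Of 13185 genes, 0% were as closely correlated with Slc1a2 as Oat was, and 0.0228% were as closely correlated with Oat. In polysome RNA the pair had r = 0.79.

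Oat and Lhpp had r = 0.90 and rho = 0.90 (permutation test, adjusted p = 0.013 and 0.0155), with r = 0.85 without mice 9 and 11 and 0.98 within LNA groups. Those 2 genes are neighbours on chromosome 7, 34.2 kb apart, with Nkx1-2 and Gm46021 between them. In polysome RNA r was 0.56. Levels in a library share its depth and scaling, and the part of these in the correlations was not tested.

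**Figure D4:**
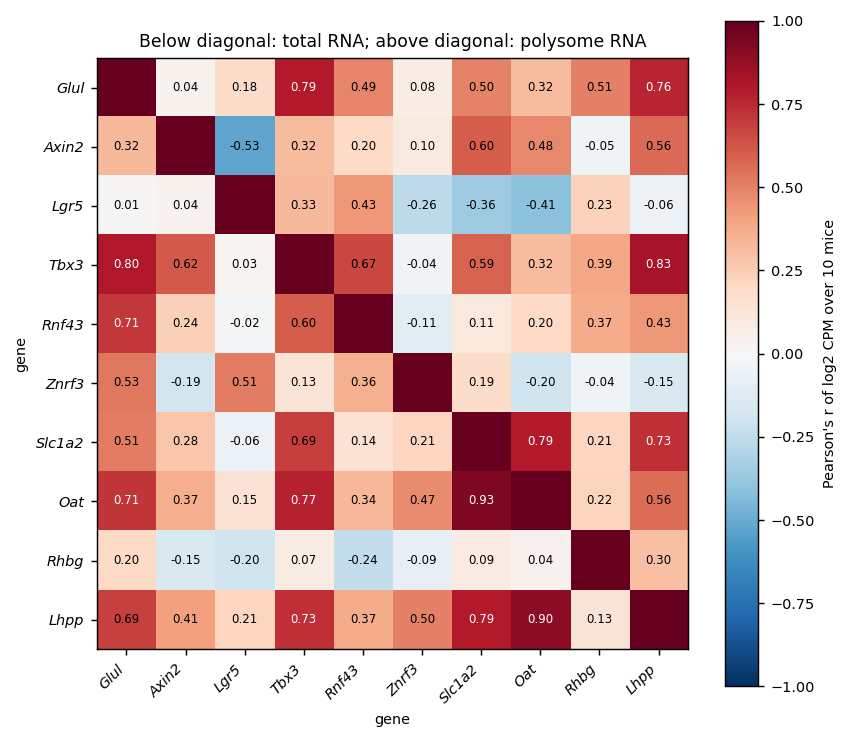
Pearson's r of log2 CPM over 10 mice for each pair of genes, with total RNA below the diagonal and polysome RNA above it. In total RNA, Slc1a2, Oat and Lhpp have 0.79 to 0.93 among them, and Rhbg and Lgr5 have values near 0 with most others, for instance 0.04 for Rhbg with Oat and 0.01 for Lgr5 with Glul.

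The genes nearest to Glul over the 10 total RNA libraries were Tpp1 (r = 0.98), Ccdc122 (0.97), Cd300ld (0.96), Fgfr1op2 (0.93) and Map3k7 (0.93), given without a test since they were picked by r. Their r with Glul in polysome RNA was 0.43, 0.73, 0.94, 0.17 and -0.37 in the same order, highest for Cd300ld. The genes nearest to Axin2 were Cpne3 (r = 0.84), Gm46516, Prickle1, Rpp30 and Cdk12 (0.82), with polysome values from -0.58 to 0.45.

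Promoter sequence was matched for 5 of the 10 genes in RefSeq (GRCm38.p6), as the 250 bases before a start. The windows of Glul, Oat and Slc1a2 are shown, since Oat and Slc1a2 varied together and Glul is the defining gene of the zone. The letters CTTTGA, the core of the TCF/LEF binding motif, were searched on both strands, so that TCAAAG counts too. Capitals mark matches, and each sequence runs 5′ to 3′ along its gene. The Glul window is chr1:153899679-153899928 on the plus strand, the Oat window chr7:132576399-132576648 on the minus strand, and the Slc1a2 window chr2:102706188-102706437 on the plus strand, before a start inside the span of the gene.
Glul: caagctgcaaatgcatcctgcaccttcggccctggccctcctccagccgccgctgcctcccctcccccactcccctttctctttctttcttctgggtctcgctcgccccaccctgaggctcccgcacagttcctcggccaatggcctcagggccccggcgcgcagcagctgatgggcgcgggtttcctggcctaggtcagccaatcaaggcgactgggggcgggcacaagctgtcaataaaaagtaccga
Oat: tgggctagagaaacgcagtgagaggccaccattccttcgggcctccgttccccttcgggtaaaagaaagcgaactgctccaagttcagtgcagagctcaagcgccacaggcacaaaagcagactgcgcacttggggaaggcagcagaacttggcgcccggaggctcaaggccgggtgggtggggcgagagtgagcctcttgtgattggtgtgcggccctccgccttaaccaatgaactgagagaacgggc
Slc1a2: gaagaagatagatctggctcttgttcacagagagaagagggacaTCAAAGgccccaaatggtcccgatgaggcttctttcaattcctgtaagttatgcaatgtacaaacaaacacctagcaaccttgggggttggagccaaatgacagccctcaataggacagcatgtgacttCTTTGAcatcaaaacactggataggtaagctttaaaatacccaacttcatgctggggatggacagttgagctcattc
The Slc1a2 window held 2 matches, 1 on each strand, whose first bases lie 206 and 77 bases before that start. No other window of the 6 found for members held the core, and 13.8% of 32851 mouse windows did. A match is a description of the letters, and the windows leave out more distant sequence.

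By annotation (GRCm38.p6) the genes span chr11:108917828-108950783 (Axin2), chr11:87663087-87735539 (Rnf43), chr11:5276329-5444847 (Znrf3), chr10:115450314-115587780 (Lgr5) and chr5:119670534-119684724 (Tbx3). The metabolic genes span chr1:153899929-153909723 (Glul), chr2:102658239-102790784 (Slc1a2), chr7:132557475-132576398 (Oat), chr3:88242874-88254739 (Rhbg) and chr7:132610615-132706420 (Lhpp). The libraries were reverse-stranded, and the strand option used for counting is not given in the sources used here, so reads of Tbx3 and its antisense neighbour Tbx3os1 may not be separable.

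The rest of the pathway and of the zone was read from 8 gene lists. In edgeR 0 of their tested genes was called between the LNAs in total or polysome RNA, beside 0.0303% and 0.0153% of all genes. Values of the lists for polysome against total RNA, and the shares of all genes beside them, are from the fits without the mouse as a block. Of 20 other pericentral hepatocyte genes, 2 had an unadjusted p under 0.05 in total RNA and 6 in polysome RNA, against 8.65% and 13.4% of all genes. Their medians were -0.08 and -0.14 on the log2 scale, and those of 20 periportal genes were 0.14 and 0.02. Cyp2e1, the cytochrome that oxidises ethanol, had log2 fold changes of -0.08 and -0.15 (edgeR FDR 0.902 and 0.707). Mup17 had 0.86 and 0.87 (FDR 0.524 and 0.325), and it belongs to a family of near-identical genes whose reads are hard to assign.

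Periportal Cps1, which fixes ammonia for the urea cycle, had log2 fold changes between the LNAs of -0.02 and -0.06, and Ass1, a later enzyme of that cycle, 0.32 and 0.35. Cps1 was lower in polysome than in total RNA in both groups, by log2 differences of -1.27 and -1.31. Of the 20 periportal genes, 2 were higher and 3 lower in polysome RNA of the GFP mice, and of the 20 pericentral genes 2 were higher and 5 lower. Of all genes, 21.8% were higher and 21% lower. In the Snora37kd mice 0 periportal genes were higher and 5 lower, and 2 pericentral genes were higher and 6 lower, against 19.7% and 18.2% of all genes.

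Upstream of the members, 8 of 11 Wnt receptors and co-receptors tested were lower and 1 higher in polysome RNA of the GFP mice, with a median log2 difference of -0.69 beside 0.03 for all genes, of which 21% were lower and 21.8% higher. In the Snora37kd mice 4 were lower and 1 higher, with a median of -0.44 beside 0.02 for all genes, of which 18.2% were lower and 19.7% higher. Lgr4, the R-spondin receptor found across the liver, was lower by log2 differences of -1.08 and -0.98, and Ryk, a Wnt co-receptor, had -0.31 (edgeR FDR 0.0259) and -0.17 (FDR 0.235). Lgr5 and Lgr4 were thus both lower in polysome RNA of the GFP mice.

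Of 14 genes of beta-catenin, its destruction complex and Dishevelled, 6 were lower and 1 higher in the GFP mice, and 5 were lower and 3 higher in the Snora37kd mice. Of all genes 21% were lower and 21.8% higher in the GFP mice, and 18.2% and 19.7% in the Snora37kd mice. Ctnnb1, which encodes beta-catenin, was lower in polysome RNA by log2 differences of -0.94 and -1.03, and Csnk1a1, a kinase that marks beta-catenin for destruction, by -0.76 and -0.71. Between the LNAs Ctnnb1 had log2 fold changes of -0.20 in total and -0.29 in polysome RNA (edgeR FDR 0.527 and 0.481).

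Of 12 nuclear effectors, 3 were higher and 2 lower in polysome RNA in each group, against 21.8% and 21% of all genes with GFP and 19.7% and 18.2% with Snora37kd. Hnf4a, a hepatocyte transcription factor, had log2 differences of -0.08 and 0.03, and the co-repressor gene Tle1 -0.32 (edgeR FDR 0.0579) and -0.36 (FDR 0.0378). Among 9 other Wnt targets 1 was lower in each group. Prox1, a hepatocyte transcription factor, had log2 fold changes between the LNAs of 0.48 and 0.91 (edgeR FDR 0.642 and 0.184), and Ccnd1, a cyclin, had -0.09 in both (FDR 0.981 and 0.96).

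Wnt ligands and their secretion factors were sparse, and 7 of 11 were tested. Rspo3, the R-spondin of central vein endothelium, was at a mean of 9.75 CPM with GFP and 9.08 CPM with Snora37kd in total RNA. Wls, the carrier that takes Wnt proteins to the cell surface, was lower in polysome RNA of the Snora37kd mice (log2 difference -0.85, edgeR FDR 0.00257), while in the GFP mice the value was -0.23 (FDR 0.369). The list of secreted inhibitors also held Kremen receptors, and 4 of its genes were tested. Of these, 1 was higher and 0 lower in polysome RNA of the GFP mice, against 21.8% and 21% of all genes. In the Snora37kd mice 0 were called. The median log2 difference of the 4 was -0.68 with GFP and 0.16 with Snora37kd. The call was Kremen1, a receptor for Dickkopf inhibitors and itself not secreted (log2 difference 0.56, edgeR FDR 0.0129, and 0.30, FDR 0.198, with Snora37kd). None of the secreted inhibitors tested was called. Frzb, a secreted Frizzled-related protein, had -0.89 in both groups (FDR 0.0544 and 0.079). In the interaction of RNA and LNA, edgeR called 0 genes of the 8 lists, beside 0.00725% of all genes. A call in 1 LNA group and not in the other is thus not shown to differ between them.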

How the data were processed

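Total and polysome RNA of 10 livers were sequenced as polyA-selected, reverse-stranded 100 bp paired-end libraries. The authors trimmed reads with fastp, removed rRNA reads, estimated transcript abundance with kallisto against an Ensembl annotation and deposited estimated counts per gene, with no normalization (processing notes name fastp, Bowtie2, SAMtools, kallisto and GRCm38). All 20 columns matched a sample by title, and 0 were left over.

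Estimated counts were rounded to whole numbers, and 51903 of 53028 gene IDs had a symbol. Genes above 0.5 CPM in at least 4 libraries were kept. Differences were tested with edgeR 4.0.16 (quasi-likelihood, sizes scaled by the trimmed mean of M values, Benjamini-Hochberg over all genes tested, FDR under 0.05), in 10 libraries for each RNA and in 20 libraries for polysome against total RNA. The code was tested on simulated data. Printed CPM were scaled over all 20 libraries, and log2 ratios over all genes had 0.1 CPM added to each value. Scaling factors were 1.01 to 1.06 and 0.877 to 0.982 in total RNA of the GFP and Snora37kd mice, and 1.01 to 1.13 and 0.894 to 1.03 in polysome RNA. Intervals are 95%. Correlations used log2 CPM with a prior count of 2 and 100000 resamples.

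Each mouse gave both libraries, which is where the pairing comes from. Deviations of the 2 libraries of a mouse from their group means had r of 0.127 to 0.635 over 12736 genes, and 9 of 10 libraries matched best with their own number. The study used 4 mice per group without naming those left out, so all 5 were used. Mice 9 and 10, taken from an earlier comparison with its supplementary table as the probable pair, were left out as an alternative. Other alternatives were limma-voom (limma 3.58.1), DESeq2 1.42.0, library totals, no filter, 1 fit of all 20 libraries, the mouse as a block, and each mouse left out.

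The members were listed by name, and they, the gene lists and the tests were chosen with earlier results of these data known. Named list genes were those called between the LNAs and the 2 with the highest mean total CPM in each list. Nearest genes were the 5 with the highest r. No transcript lengths were used, so a CPM rank chose the list genes and is no comparison of levels between genes. Sequences and coordinates are from RefSeq (GRCm38.p6).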

Additional observations from a re-analysis of the deposited data

Results flagged for a closer look

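Of 40 groups of 5 libraries examined (10 genes in 4 groups), 3 held a library that stood apart from the other 4 by Dixon's test, and chance alone gives about 1 in 20. Glul in polysome RNA of GFP mouse 9 was at 658 CPM, against 428 to 486 CPM in the other 4. Lhpp in total RNA of GFP mouse 9 was at 35.6 CPM, against 22.9 to 26.4 CPM. Tbx3 in total RNA of Snora37kd mouse 10 was at 45.2 CPM, against 14.9 to 22.4 CPM. Mice 9 and 10 also had the highest Glul in both RNAs, at 967 and 1065 CPM in total RNA.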

How the results depend on the processing

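No member was called between the LNAs in total or polysome RNA, or in the interaction, under any alternative, so every change of sign below is among values that did not pass. Away from the single-mouse omissions, 302 of the gene values kept direction and, for the fold changes, side of the threshold. Of the rest, 11 gained and 2 lost a call, and 24 changed sign. Correlations without the 2 farthest mice were counted here by sign alone. Library totals put the median of all genes at -0.14 in total and -0.17 in polysome RNA and gave log2 fold changes of -0.081 (Glul), -0.11 (Lgr5), -0.055 (Rnf43) and -0.040 (Rhbg) in total RNA, -0.0035 (Rnf43), -0.045 (Znrf3) and -0.096 (Rhbg) in polysome RNA, and an interaction of -0.033 (Lhpp). Without mice 9 and 10, total RNA gave -0.12 (Lgr5), 0.0084 (Znrf3) and 0.027 (Oat), polysome RNA 0.028 (Axin2), and the interaction -0.039 (Rnf43), 0.00065 (Slc1a2), 0.060 (Rhbg) and -0.045 (Lhpp). With limma-voom the values were -0.038 (Lgr5) in total RNA and 0.13 (Rhbg) and -0.010 (Lhpp) in the interaction. With the mouse as a replicate block they were -0.032 (Lgr5) in total RNA and 0.070 (Rhbg) and -0.014 (Lhpp) in the interaction. Without the 2 farthest mice, r was 0.051 for Znrf3 in total against polysome RNA and -0.59 for Glul with Rhbg. The cause was not tested.

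The replicate block raised the members called in polysome against total RNA from 5 to 9 (GFP) and from 3 to 7 (Snora37kd), and changed no other count. Leaving out single mice gave 2 to 5 and 1 to 4, with 3 without GFP mouse 1, 2 without GFP mouse 8 and 1 without Snora37kd mouse 12. Calls over all genes fell as well. In the GFP mice they were 5156 of 13693 without mouse 1 and 4741 of 13689 without mouse 8, beside 5909 of 13795. In the Snora37kd mice they were 4150 of 13747 without mouse 12, beside 5238 of 13795. Glul with Snora37kd was also called by DESeq2 (FDR 0.039), without GFP mouse 9 (0.0334) and without mice 9 and 10 (0.0165), and Lgr5 without mice 9 and 10 (0.0257), mouse 10 (0.0492) or mouse 6 (0.0403). Without mice 9 and 10, Axin2 in the GFP mice (0.0835) and Znrf3 in the Snora37kd mice (0.0659) lost their calls.

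Leaving out each mouse in turn, total RNA gave -0.072 to 0.18 (Glul), -0.091 to 0.20 (Lgr5), -0.13 to 0.10 (Oat), -0.010 to 0.21 (Rhbg), -0.14 to 0.028 (Slc1a2), -0.067 to 0.43 (Tbx3) and -0.14 to 0.091 (Znrf3), polysome RNA gave -0.21 to 0.057 (Axin2) and -0.18 to 0.34 (Rhbg), and the interaction gave -0.053 to 0.089 (Lhpp), -0.21 to 0.20 (Rhbg), -0.014 to 0.13 (Rnf43) and -0.042 to 0.26 (Znrf3).

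Precision was limited by 5 mice per group and, for Axin2, Lgr5, Znrf3 and Rhbg, by counts of 29 to 263 per library. Among all genes, edgeR called 4 in total and 2 in polysome RNA between the LNAs, DESeq2 75 and 281, the fit without mice 9 and 10 97 and 31, and the fit of all 20 libraries 4 and 317. The scaling sets each level relative to the other genes, so a change shared by most genes would not be seen.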
